A study of Rattus norvegicus with 4 samples.

Results

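Immediate early genes and heat shock genes were followed through the cell classes of a healing rat skin wound. The group held 37 genes of the 23999 in the deposited tables, chosen by name: 27 immediate early genes and 10 genes of heat shock proteins and other chaperones. All 37 names were found in the tables. Skin wounds of day 4 were dissociated, and RNA was counted cell by cell in droplets, with 4 libraries in 2 groups of 2. The injected group had received purified migrasomes, vesicles that migrating cells leave on their retraction fibres, and the uninjected group had received nothing. No group was injected with vehicle alone, so the act of injecting and the migrasomes cannot be told apart. The labels name rat and skin but give no strain, sex or age, and they do not say that replicates were separate animals, so that a p-value here is set against differences among libraries that could be technical. All tissue was digested with enzymes at 37 °C before capture.

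Immediate early genes are switched on within minutes of a stimulus without new protein synthesis. Growth factors, wounding, antigen and mechanical or chemical stress reach them through kinase cascades that act on serum response factor, its partners and CREB, and many of their products (the AP-1 proteins of the Fos and Jun families, Egr and Klf proteins) are transcription factors, while others (Zfp36, Dusp1, Ier3) limit the same response. Chaperones fold proteins or keep them folded: the heat shock factor raises the cytosolic ones (Hspa1b, Hsph1, Dnajb1, Hsp90aa1) when proteins unfold in the cytosol, and the unfolded protein response raises Hspa5, the chaperone BiP of the endoplasmic reticulum. Both kinds of gene are also known to respond to warm enzymatic dissociation of tissue. Their levels in the wound before digestion were not measured.

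Promoter sequences are shown for 7 members on which the results turn, as the 120 bases upstream of the annotated start, 5′ to 3′ on the gene's strand, from RefSeq with its build GRCr8. The RefSeq table matched 27 of the 37 members by symbol (19 immediate early, 8 chaperone), and motifs were searched in the 250 bases upstream of each start on both strands. Capitals mark the motif found: in Hspa5 the endoplasmic reticulum stress element (CCAAT, any 9 bases, CCACG), in Hsph1, Hspa8 and Hspe1 the heat shock element (GAA, any 2 bases, TTC, any 2 bases, GAA, or its reverse complement; in Hspe1 a pair of overlapping matches), in Zfp36 the CArG box of serum response factor, and in Maff the cyclic AMP element (TGACGTCA). Dusp2 is shown as a member with no match to any of these motifs.
Hspa5 (chr3:38452896-38453015, plus strand): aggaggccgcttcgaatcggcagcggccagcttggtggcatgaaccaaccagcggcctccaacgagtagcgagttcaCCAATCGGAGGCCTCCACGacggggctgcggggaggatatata
Hsph1 (chr12:10427248-10427367, plus strand): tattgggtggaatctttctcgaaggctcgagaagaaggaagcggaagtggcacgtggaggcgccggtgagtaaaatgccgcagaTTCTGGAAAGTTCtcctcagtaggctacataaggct
Hspa8 (chr8:50080394-50080513, plus strand): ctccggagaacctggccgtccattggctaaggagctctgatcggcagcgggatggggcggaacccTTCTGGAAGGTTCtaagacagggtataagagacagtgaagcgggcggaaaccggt
Hspe1 (chr9:64084207-64084326, plus strand): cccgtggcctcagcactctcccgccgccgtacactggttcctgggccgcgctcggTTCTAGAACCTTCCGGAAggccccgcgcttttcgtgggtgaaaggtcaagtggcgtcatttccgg
Zfp36 (chr1:92799109-92799228, minus strand): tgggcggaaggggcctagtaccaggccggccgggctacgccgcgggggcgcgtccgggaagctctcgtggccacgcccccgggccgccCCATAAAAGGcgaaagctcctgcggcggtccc
Maff (chr7:112792667-112792786, plus strand): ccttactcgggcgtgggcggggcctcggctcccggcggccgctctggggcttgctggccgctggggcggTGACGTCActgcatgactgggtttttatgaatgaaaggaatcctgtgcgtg
Dusp2 (chr3:135009516-135009635, plus strand): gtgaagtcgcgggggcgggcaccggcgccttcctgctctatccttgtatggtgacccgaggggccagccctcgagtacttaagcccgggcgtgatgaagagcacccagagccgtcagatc

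The heat shock element was found in 4 of the 8 chaperone promoters (Hspa8, Hsph1, Hspd1 and Hspe1) and in 0 of the 19 early gene promoters, against 0.663% of 33469 RefSeq promoters of the same length. Hspd1 and Hspe1, partners in folding proteins inside mitochondria, are head to head with 290 bases between their starts, and their windows share 211 bases that hold the matches of both. The endoplasmic reticulum stress element was found in Hspa5 alone among the 27 promoters, and in 0.066% of all promoters. A CArG box was found in 4 early gene promoters (Zfp36, Klf6, Egr1 and Egr2; 1.497% of all promoters). TGACGTCA was found in 5 (Maff, Dusp1, Btg2, Jund and Ier2) and in the chaperone Hsp90ab1 (1.587% of all promoters). A match is a stretch of letters and not a measured binding site.

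The libraries held 75823418 to 105605297 UMIs (molecules counted once by their barcode), and 6075 to 9844 cells were kept in each. Uninjected 1 stood apart: ribosomal protein genes took 17.1% of the UMIs of its cells, against 7.16% to 8.61% in the other 3 libraries, and the 37 members together took 1.61%, against 2.12% to 2.29%. Between 14 and 29 cell barcodes were shared by any pair of libraries. Cells were clustered without the 37 members and clusters were named from marker genes, and 6 classes with at least 50 cells in every library were tested: keratinocyte-like (2765 to 3827 cells a library), neutrophil-like (1606 to 4259), fibroblast-like (365 to 853), macrophage-like (61 to 691), T and NK-like (139 to 407) and dendritic-like (111 to 265). The UMIs of a class were summed per library and given as CPM (counts scaled to a fixed library total, here with TMM factors), so that the library was the replicate (n = 2 a group). Free RNA in droplets could account for at most 1.23% to 7.38% of the UMIs of a class in a library, by the markers of other classes.

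Every tested class expressed most of the members, and single members had a home class among the tested ones. For 10 of the 27 immediate early genes and 2 of the 10 chaperones, the lowest of the 4 libraries in one class was above every library of the other 5 classes. Dendritic-like cells held 2 of these, Nr4a3 (ENSRNOG00000005964) and Nr4a2, orphan nuclear receptors. In that class Nr4a3 stood at 1695 and 1685 CPM without injection and at 1630 and 1610 CPM with it. Next in order came T and NK-like cells with a mean of 134 CPM (SD 38.0 over 4 libraries) and fibroblast-like cells with 74.0 (SD 13.6), which overlapped. With each cell thinned to 1000 UMIs, 63.6%, 66.8%, 68.9% and 63.8% of dendritic-like cells had a UMI of Nr4a3 (82.9% to 94.4% unthinned, median depths of 4343 to 7797 UMIs). For comparison, 2.11% to 2.93% of keratinocyte-like cells, where free RNA could account for at most 10.9% of the Nr4a3 UMIs, had one (15.3% to 26.9% unthinned, 9886 to 16104 UMIs).

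T and NK-like cells were the home class of Dusp2 (ENSRNOG00000013862), a nuclear phosphatase of MAP kinases induced in activated lymphocytes, with a mean of 2150 CPM (SD 947 over 4 libraries) against 726 (SD 163) in macrophage-like and 342 (SD 61.03) in neutrophil-like cells. Neutrophil-like cells held 5 members in this way: Egr1, the mRNA-decay factor Zfp36, the antiproliferative gene Btg2, Klf6 and the small Maf protein gene Maff. Their mean was 1899 CPM for Egr1 (SD 385) and 1934 CPM for Zfp36 (SD 148), and the class next in order had 1055 CPM (fibroblast-like) and 672 CPM (macrophage-like). Keratinocyte-like cells were highest for the AP-1 subunit Fosl1, at 481 CPM (SD 145), and the Hsp70 partner Dnajb1, at 479 CPM (SD 47.6). Of the tested classes, fibroblast-like cells were highest for Fosb, at 1144 CPM (SD 171), and the inducible Hsp70 gene Hspa1b, at 1497 CPM (SD 669). In classes too small to be tested, Hspa1b stood at 2626 to 5500 CPM (melanocyte-like) and Fosb at 1147 to 1728 CPM (mast-like), without TMM scaling. Among the tested classes the small heat shock gene Hspb1 was shared by keratinocyte-like (860 CPM, SD 232) and fibroblast-like cells (551 CPM, SD 143), whose libraries overlapped. Mural-like cells, too few to be tested, had more Hspb1, at 2334 and 1236 CPM in uninjected and 1124 and 2077 CPM in injected libraries without TMM scaling. In neutrophil-like, macrophage-like and dendritic-like cells the Hspb1 UMIs could be free RNA almost entirely (limits of 100%, 100% and 99.8% in the library with most).

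**Figure D1:**
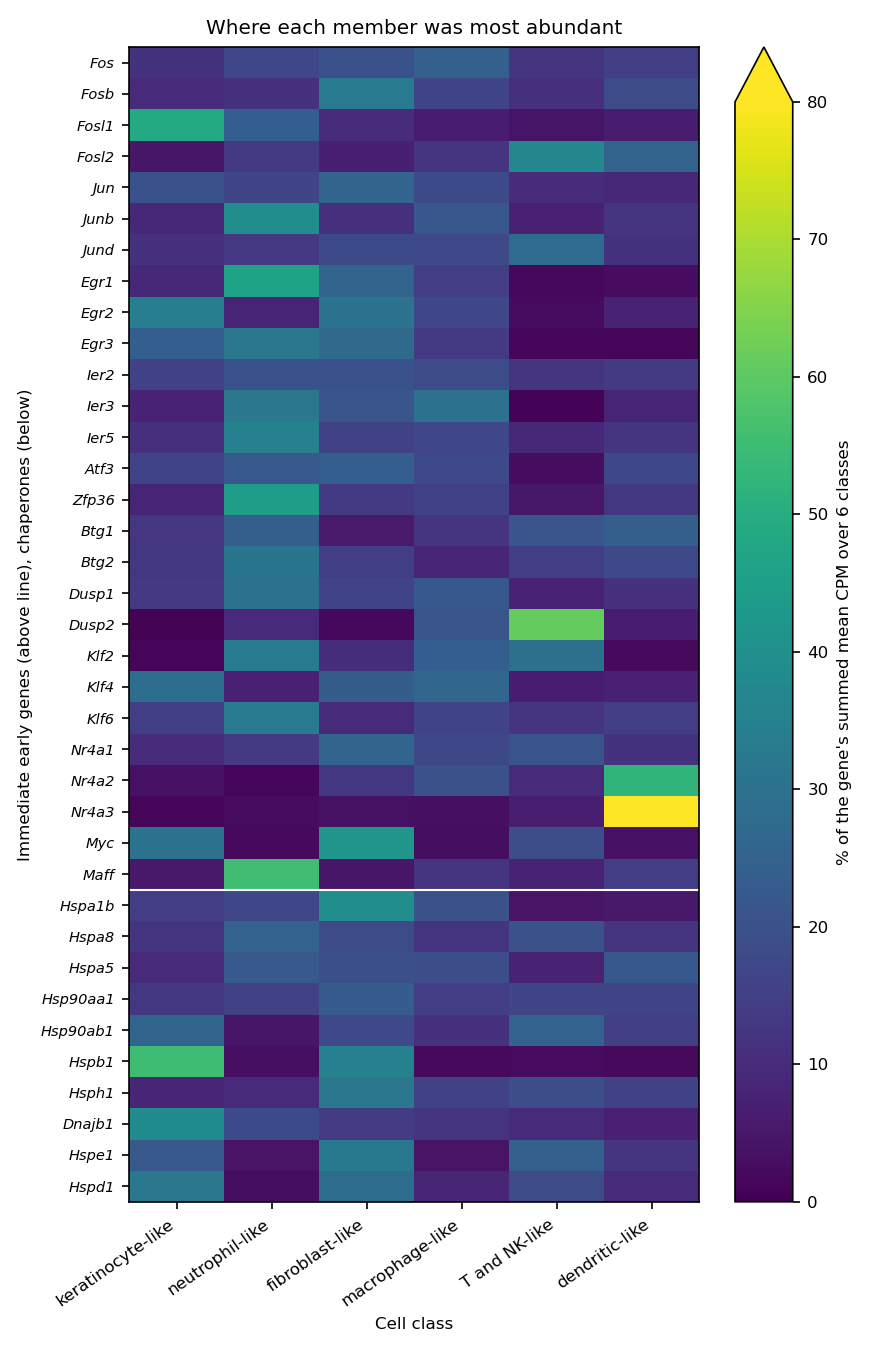
Share of each member's summed mean CPM that fell in each of the 6 cell classes (columns; mean over 4 libraries, in percent of the gene's sum, colour scale from 0 to 80% and above). Rows are the 37 members, immediate early genes above the line and chaperones below it. Nr4a3 lies almost wholly in dendritic-like cells and Dusp2 mostly in T and NK-like cells, while Fos and Ier2 are spread over the classes.

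Other members had no home class among the tested classes. Among the tested classes Fos was highest in macrophage-like cells (475 CPM, SD 64.8). Next came fibroblast-like (390 CPM, SD 96.9) and neutrophil-like cells (332 CPM, SD 108), with overlap between each of these neighbours. Melanocyte-like cells, too few to be tested, had more Fos, at 632 to 980 CPM without TMM scaling. Ier3, an early gene that limits cell death, was at 4196 CPM in neutrophil-like (SD 659) and 3978 CPM in macrophage-like cells (SD 950), which overlapped. It was lowest in T and NK-like cells. Mural-like cells, too few to be tested, had more Ier3 than any tested class. They stood at 9484.5 and 7731 CPM in uninjected and 8633 and 6181 CPM in injected libraries without TMM scaling. Hspa5 had similar means in neutrophil-like (1947 CPM, SD 629), dendritic-like (1937 CPM, SD 481) and fibroblast-like cells (1696 CPM, SD 569). Hspe1 stayed at a mean of 15.8 CPM (SD 4.53) or less in each tested class, while its mitochondrial partner Hspd1 reached 464 CPM (SD 74.5) in keratinocyte-like cells. Near-identical copies exist for Hspe1, Hspd1, Hspa8, Hsp90ab1 and Hspa1b, and reads that match several copies may have been lost from these genes, so their levels are uncertain.

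No member passed the threshold between injected and uninjected wounds in any class (edgeR quasi-likelihood test, Benjamini-Hochberg adjusted p under 0.05 over all genes of the class). Of all genes tested, 0 of 14629 passed in keratinocyte-like cells (0.00%), 0 of 8361 in neutrophil-like (0.00%), 5 of 13281 in fibroblast-like (0.0376%), 1 of 8677 in macrophage-like (0.0115%), 0 of 8369 in T and NK-like (0.00%) and 0 of 7971 in dendritic-like cells (0.00%). At an unadjusted p under 0.05 the members numbered 12 in T and NK-like cells (8.53% of all genes tested there), 6 in fibroblast-like (10.3%), 3 in keratinocyte-like (4.48%), 1 in macrophage-like (5.28%) and 0 in neutrophil-like (9.07%) and dendritic-like cells (6.31%). DESeq2 called 0 members in each class as well. With 2 libraries against 2, an exact permutation test of a single gene cannot give a two-sided p below 0.333. A difference below is therefore described by whether the libraries of the groups overlapped, beside the share of all genes for which they did not.

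In T and NK-like cells most early genes lay lower in the injected libraries. Of 25 immediate early genes tested there, 18 were below both uninjected libraries in both injected libraries and 1 was above, where 22.2% and 22.6% of all 8369 genes were. Their median log2 difference was −0.57, against −0.0078 over all genes. In fibroblast-like cells, 9 of 27 were above and 2 below (21.2% and 20.0% of all genes), with a median of 0.21. In keratinocyte-like cells 8 of 27 were above and 1 below (18.8% and 17.6%), with a median of 0.10. Neutrophil-like cells had 4 above and 5 below of 27 (21.3% and 20.3%), macrophage-like cells 3 and 7 of 27 (21.4% and 17.6%), and dendritic-like cells 7 and 5 of 25 (19.7% and 18.4%), with medians of −0.012, −0.20 and 0.05. In these last 3 classes the share above was larger than that of all genes in dendritic-like cells and the share below in macrophage-like and dendritic-like cells, and the other shares were smaller.

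Among the chaperones, 5 of 10 were above in fibroblast-like and 4 of 10 in keratinocyte-like cells, and 1 was below in each. Of all genes, 21.2% and 18.8% were above and 20.0% and 17.6% below in these classes. The median differences were 0.27 and 0.14 on the log2 scale. T and NK-like cells had 1 of 10 above and 4 below (22.6% and 22.2% of all genes), with a median of −0.48. In neutrophil-like cells 2 of 9 were above and 1 below (21.3% and 20.3% of all genes). Hspd1, among those above, was at 40.45 CPM in uninjected 2 and 40.46 CPM in injected 2. Free RNA could account for up to 66% of its UMIs, and for up to 27% of those of Hsp90ab1, the gene below. Macrophage-like cells had 1 and 1 of 9 (21.4% and 17.6%) and dendritic-like cells 2 and 3 of 10 (19.7% and 18.4%). The medians of these last classes were −0.066, −0.05 and −0.13. In neutrophil-like and dendritic-like cells the share above was close to that of all genes. The mitochondrial chaperone gene Hspe1 had too few UMIs to be tested in neutrophil-like and macrophage-like cells, as had Egr2 and Egr3 in T and NK-like and Egr3 and Klf2 in dendritic-like cells.

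**Figure D2:**
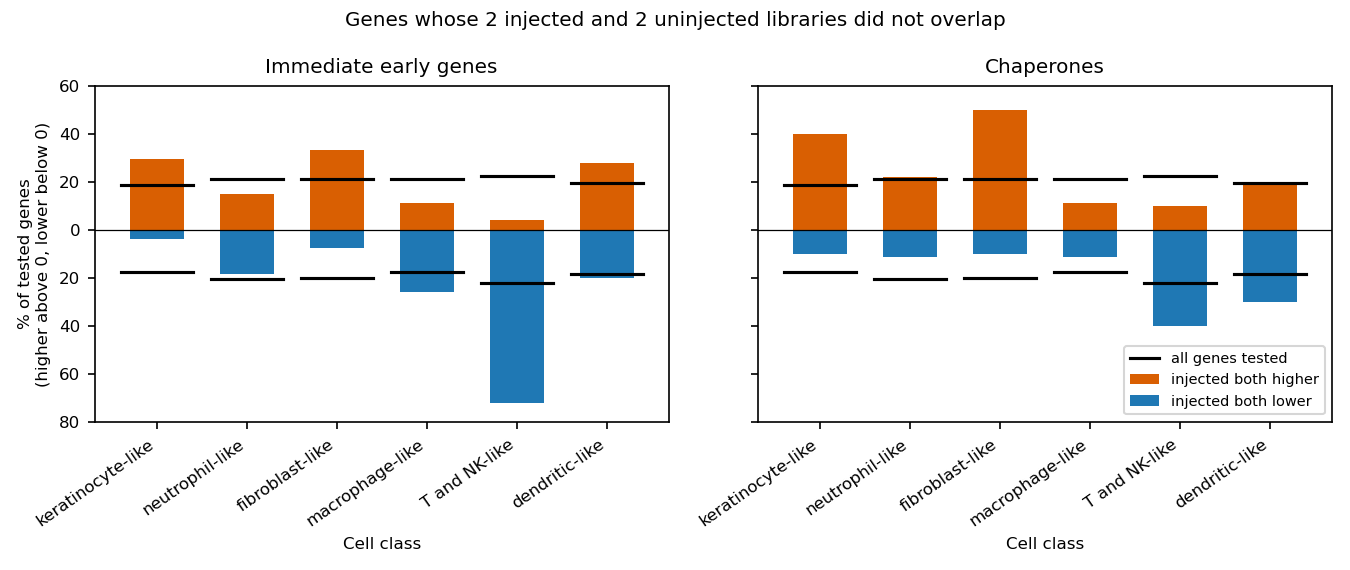
Percent of tested immediate early genes (left) and chaperones (right) whose 2 injected libraries were both higher (orange, upward) or both lower (blue, downward) than the 2 uninjected libraries, by cell class. Black lines give the same percent over all genes tested, for example 22.2% lower in T and NK-like cells, where 18 of 25 immediate early genes were lower.

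**Figure D3:**
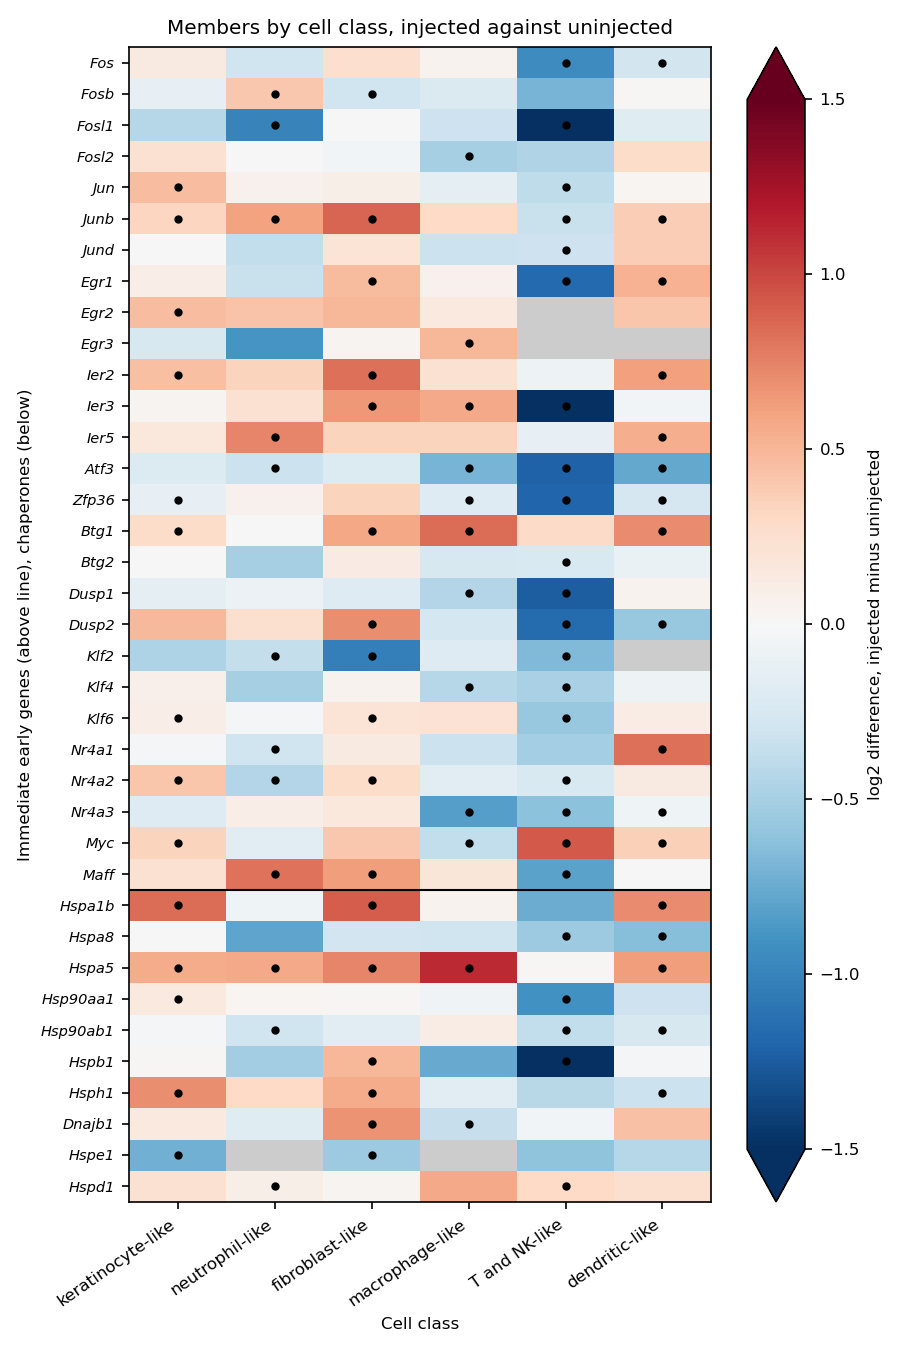
Log2 difference of each member between injected and uninjected libraries (columns are cell classes, colour scale from −1.5 to 1.5, values beyond in the end colours). Black dots mark members whose libraries did not overlap between the groups, and grey cells are members not tested. The dotted cells are mostly blue in the T and NK-like column and mostly red in the fibroblast-like column.

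In T and NK-like cells Dusp2 stood at 2828 and 3101 CPM without injection and at 1345 and 1327 CPM with it. Both injected libraries were far below both uninjected ones, at a log2 difference of −1.15 (SE 0.33, edgeR adjusted p = 0.571). Without uninjected 1 the difference was −1.21 (SE 0.20, edgeR adjusted p = 0.0125, with 0.609% of all genes past the threshold), and without uninjected 2 it was −1.06 (SE 0.20, edgeR adjusted p = 0.00918, with 6.37% of all genes past it). Both of these fits have 1 library in the uninjected group, which is assumed to vary like the injected ones. Without uninjected 2, 9 other members passed the threshold as well, all lower (Zfp36, Fosl1, Atf3, Dusp1, Egr1, Ier3, Hsp90aa1, Hspa1b and Hspb1). After thinning to 1000 UMIs, a UMI of Dusp2 was found in 67.2% and 70.0% of the cells of uninjected wounds and in 51.3% and 45.3% of those of injected wounds (Wilson intervals of 58.8% to 74.5%, 64.9% to 74.6%, 46.4% to 56.2% and 37.9% to 53.1%, counting error only). Unthinned, 79.1%, 82.5%, 69.8% and 67.1% had one, at median depths of 2782, 4214, 4309 and 4245 UMIs. For comparison, keratinocyte-like cells, where free RNA could account for at most 28.7% of the Dusp2 UMIs, had a thinned share of 1.17% to 2.86%.

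Egr1 (ENSRNOG00000019422), the zinc finger factor downstream of serum response factor, was at 107 and 80.01 CPM in uninjected and 39.1 and 42.2 CPM in injected T and NK-like cells. The groups did not overlap, with a log2 difference of −1.17 (SE 0.27, edgeR adjusted p = 0.571), and −1.38 with an adjusted p of 0.0236 without uninjected 2. Zfp36 (ENSRNOG00000058388), which destabilises cytokine mRNAs, was at 382 and 253 CPM against 165 and 109 CPM (log2 difference −1.19, SE 0.32, edgeR adjusted p = 0.571). Again the lower uninjected library was above both injected ones. The AP-1 genes Fos and Jun had the same order: Fos stood at 283 and 330 CPM against 207 and 109 CPM, and Jun at 604 and 648 CPM against 453 and 512 CPM. Maff was at 170 and 156 CPM against 108 and 75.7 CPM. The MAP kinase phosphatase Dusp1 was at 750 and 353 CPM against 302 and 157 CPM, where the 2 uninjected libraries themselves differed more than the groups did.

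Myc (ENSRNOG00000004500), the growth regulator, went the other way in these cells, at 85.1 and 75.7 CPM in uninjected and 152 and 150 CPM in injected libraries. It was the only early gene above both uninjected libraries there, at a log2 difference of 0.92 (SE 0.23, edgeR adjusted p = 0.571). Ier2, Ier5, Fosb, Fosl2, Btg1 and Nr4a1 overlapped between the groups. Some members rested on uninjected 1: Ier3 was at 316 CPM there against 64.0, 39.6 and 54.1 CPM in uninjected 2 and the injected libraries, Fosl1 at 124 CPM against 28.9, 13.5 and 10.8 CPM, and Atf3 at 93.4 CPM against 41.2, 21.4 and 33.5 CPM. Free RNA could account for up to 74.9% of the Ier3, 50.6% of the Fosl1, 26.8% of the Atf3 and 23.5% of the Egr1 UMIs of this class in the library with most.

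Of the chaperones in T and NK-like cells, Hsp90aa1, the inducible cytosolic Hsp90, was at 552 and 280 CPM in uninjected and 231 and 207 CPM in injected libraries (log2 difference −0.91, SE 0.36, edgeR adjusted p = 0.584). The constitutive Hsp70 gene Hspa8 was at 966 and 1081 CPM against 801 and 602 CPM. Hspb1 was at 82.4 and 24.6 CPM against 12.1 and 21.6 CPM (log2 difference −1.53, SE 0.64, edgeR adjusted p = 0.584), of which up to 86.8% could be free RNA. Hspa1b was at 318 CPM in uninjected 1, at 80.01 CPM in uninjected 2 and at 104 and 122 CPM after injection, so that its difference of −0.75 became 0.50 without uninjected 1. Hspa5 overlapped, at 681 and 714 CPM against 751 and 665 CPM, as did Dnajb1 at 154 and 96.0 CPM against 122 and 113 CPM. Hspd1 was the 1 chaperone above both uninjected libraries, at 206 and 281 CPM against 299 and 305 CPM.

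Neutrophil markers moved with these values, while keratinocyte markers were highest in uninjected 1 and overlapped between the groups. The 14 neutrophil markers summed to 548 and 473 CPM in uninjected and 159 and 125 CPM in injected T and NK-like cells, with 1 of them (Fpr1) at 0. The 13 keratinocyte markers summed to 1986 and 746 CPM against 485 and 753 CPM, with 0 at 0. By these markers, neutrophil RNA could make up at most 1.502% and 1.71% of the UMIs of uninjected 1 and 2 and 0.66% and 0.636% of those of injected 1 and 2, and keratinocyte RNA 5.47% and 1.60% against 1.06% and 1.59%. The CPM that such RNA would carry was then taken away. After that, 16 of the 25 immediate early genes were below in both injected libraries and 1 (Myc) above, with a median of −0.55. This was done for the members alone, so no share of all genes can be set beside the counts. RNA of other classes was not taken away, and the part of carried RNA in the result was not tested. Junb and Ier3 were the ones no longer below. Dusp2 stayed at 2820 and 3097 CPM against 1343 and 1324 CPM. Egr1 went to 43.8 and 37.4 CPM against 26.8 and 25.5 CPM, and Ier3 to 179, 0, 3.28 and 10.54 CPM. Among the chaperones 4 remained below and 1 above. The class was made of 2 clusters, the first with more Il2ra and the second with more Gzmk. In the first alone 12 of 25 early genes were below in both injected libraries and 1 above (18.3% and 19.0% of all genes), with a median of −0.64. In the second alone 14 of 25 were below and 1 above (22.4% and 23.1% of all genes), with a median of −0.48.

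**Figure D4:**
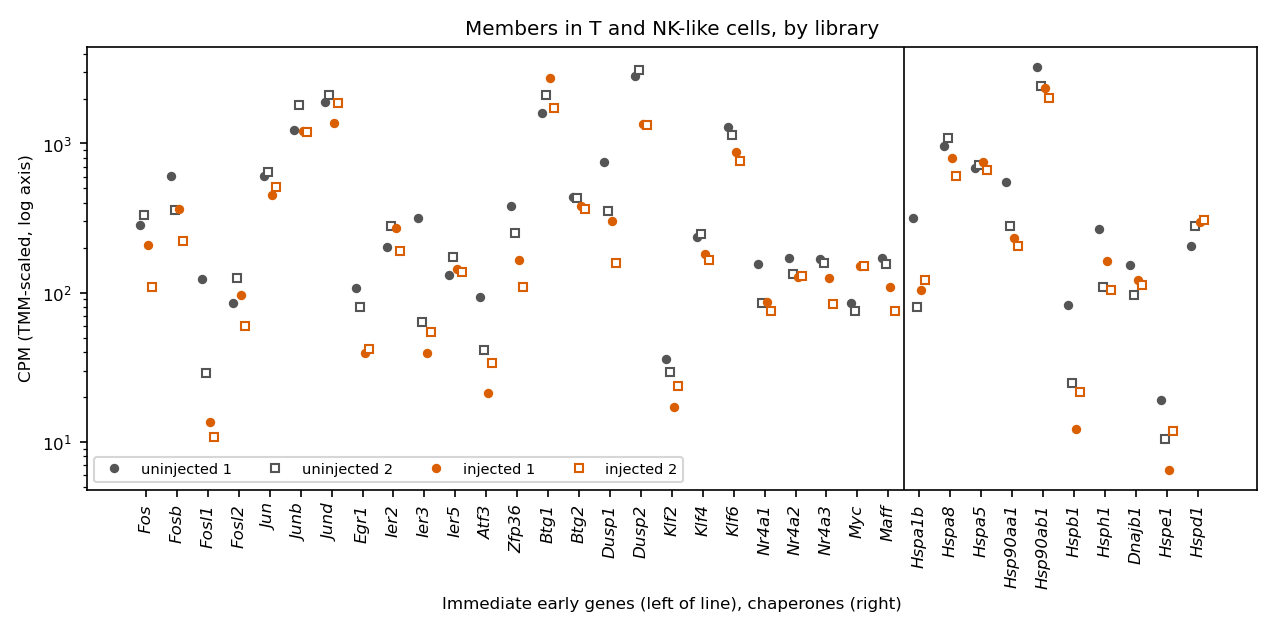
CPM of each tested member in T and NK-like cells in the 4 libraries, on a log axis: uninjected in grey, injected in orange, filled circles for replicate 1 and open squares for replicate 2. Immediate early genes are left of the line and chaperones right of it; Dusp2 shows 2828 and 3101 CPM against 1345 and 1327 CPM, and uninjected 1 lies far above the other 3 libraries for Ier3, Fosl1, Hspa1b and Hspb1.

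In fibroblast-like cells 9 early genes lay higher in both injected libraries and 2, Fosb and Klf2, lower, none of them past the threshold. Junb (ENSRNOG00000042838), an AP-1 subunit, was at 1290 and 1521 CPM in uninjected and 2342 and 2803 CPM in injected libraries, with no overlap (log2 difference 0.87, SE 0.33, edgeR adjusted p = 0.457, and 0.997 with an adjusted p of 0.0265 without uninjected 2, where 7.6% of all genes passed). Ier2, a growth-factor-induced nuclear protein gene, was at 284 and 281 CPM against 448 and 550 CPM (log2 difference 0.82, SE 0.27, edgeR adjusted p = 0.434). Both uninjected libraries agreed closely for Ier2 and lay below both injected ones. Dusp2 was at 44.7 and 49.7 CPM against 82.7 and 70.9 CPM (log2 difference 0.70, SE 0.21, edgeR adjusted p = 0.413), the side opposite to that in T and NK-like cells. Maff was at 53.9 and 63.9 CPM against 95.02 and 87.7 CPM (log2 difference 0.63, SE 0.22, edgeR adjusted p = 0.448). Ier3 was at 2257 and 2112 CPM against 3144 and 3711 CPM, and Egr1 at 1028 and 736 CPM against 1242 and 1211 CPM. Klf2, a factor of quiescent and flow-exposed cells, was lower, at 15.1 and 10.2 CPM against 3.16 and 9.34 CPM, and the AP-1 gene Fosb was at 1385 and 1136 CPM against 995 and 1058 CPM. The AP-1 genes Fos and Jun overlapped between the groups, at 392 and 321 CPM against 321 and 527 CPM and at 1286 and 1480 CPM against 1190 and 1745 CPM.

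The fibroblast-like cluster with the highest share of Lcn2 took 30 and 78 cells from uninjected wounds and 493 and 175 from injected ones. Without it the median difference of the early genes was 0.26 and that of the chaperones 0.26, and the difference of Dusp2 was 0.33, that of Fos 0.78, that of Dnajb1 1.02 and that of Hspa1b 1.39 on the log2 scale, none past the threshold. Fibroblast markers themselves summed to 38538 and 39593 CPM in uninjected and 47878 and 54457 CPM in injected libraries of this class.

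In keratinocyte-like cells Hsph1 (ENSRNOG00000000902), the Hsp110 that recharges Hsp70, had the smallest unadjusted p of the members, at 56.1 and 55.0 CPM in uninjected and 90.6 and 89.4 CPM in injected libraries. Replicates differed by less than 2 CPM within each group, and the log2 difference was 0.70 (SE 0.15, unadjusted p = 0.0053, edgeR adjusted p = 0.833). Hspa1b was at 349 and 442 CPM against 651 and 761 CPM (log2 difference 0.84, SE 0.25, edgeR adjusted p = 0.833). Egr2, a zinc finger factor of the Egr family, was at 28.4 and 28.1 CPM against 41.8 and 36.0 CPM (log2 difference 0.46, SE 0.16, edgeR adjusted p = 0.833). Ier2 was at 216 and 289 CPM against 349 and 341 CPM and Nr4a2 at 41.7 and 45.9 CPM against 49.3 and 67.6 CPM, both without overlap. Jun lay higher as well, at 898 and 970 CPM against 1420 and 1149 CPM. Fos (205 and 227 CPM against 263 and 213 CPM), Egr1 (412 and 278 against 347 and 393 CPM), Atf3 (368 and 241 against 264 and 266 CPM) and Ier3 (1156 and 881 against 972 and 1127 CPM) overlapped.

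Among the chaperones, Hspa5 (ENSRNOG00000018294) was the member that lay above both uninjected libraries in the most classes, 5 of 6. In macrophage-like cells it was at 991 and 1084 CPM in uninjected and 2334 and 2167 CPM in injected libraries, a log2 difference of 1.12 (SE 0.37, edgeR adjusted p = 0.892). Both injected libraries there were far above both uninjected ones. Dendritic-like cells had 1560 and 1483 CPM against 2333 and 2371 CPM (log2 difference 0.63, SE 0.30, edgeR adjusted p = 0.765), and fibroblast-like cells 1143 and 1401 CPM against 2450 and 1792 CPM (0.74, SE 0.34, edgeR adjusted p = 0.531). Keratinocyte-like cells had 547 and 790 CPM against 947 and 1022 CPM, with no overlap (0.56, SE 0.29, edgeR adjusted p = 0.833). Neutrophil-like cells had 1047 and 2086 CPM against 2514 and 2140 CPM, where uninjected 2 was close to injected 2 and uninjected 1 far below. T and NK-like cells were the exception, as given above. Of 6103 genes tested in all 6 classes, 1.97% were above in 5 or more classes and 2.39% below in 5 or more, while of the 33 members tested in all 6, Hspa5 was the 1 above and 0 were below. The classes of a library share that library and are not independent. Hspa5 was singled out after its values were seen.

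Genes of the unfolded protein response and of protein folding in the endoplasmic reticulum, the pathway that Hspa5 belongs to, were taken from a list of 21 others. In macrophage-like cells 16 of 21 were above and 0 below (21.4% and 17.6% of all genes), and in dendritic-like cells 14 and 1 (19.7% and 18.4%). Fibroblast-like cells had 11 and 2 (21.2% and 20.0%) and keratinocyte-like cells 10 and 1 (18.8% and 17.6%). Neutrophil-like cells had 6 and 0 (21.3% and 20.3%) and T and NK-like cells 6 and 2 (22.6% and 22.2%). Their median log2 differences were 0.58, 0.51, 0.31, 0.33, 0.16 and 0.14 in that order, against medians over all genes of −0.016 to 0.031, and 0 passed the threshold. The 2 of smallest p were found in fibroblast-like cells. Trib3, a pseudokinase induced by this response, was at 11.8 and 22.1 CPM in uninjected and 43.1 and 41.4 CPM in injected libraries (log2 difference 1.29, SE 0.31, edgeR adjusted p = 0.331). Herpud1, which helps remove misfolded proteins, was at 127 and 164 CPM against 287 and 295 CPM (log2 difference 1.0, SE 0.25, edgeR adjusted p = 0.351). Neither overlapped between the groups.

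By a count not made for all genes, Hspa1b (ENSRNOG00000050647) was above both uninjected libraries in 3 of 6 classes. Besides keratinocyte-like cells these were fibroblast-like cells, at 1017 and 1066 CPM against 1447 and 2458 CPM (log2 difference 0.91, SE 0.37, edgeR adjusted p = 0.475), and dendritic-like cells, at 122 and 200.5 CPM against 233 and 303 CPM (0.71, SE 0.33, edgeR adjusted p = 0.761). The fibroblast-like difference was 0.48 without injected 2. In neutrophil-like cells it overlapped at 517 and 802 CPM against 741 and 519 CPM, and in macrophage-like cells at 686 and 796 CPM against 824 and 714 CPM. Hsph1 was also above in fibroblast-like cells, at 225 and 215 CPM against 282 and 365 CPM, and below in dendritic-like cells, at 157 and 134 CPM against 104 and 129 CPM. Dnajb1 (ENSRNOG00000021824) was above in fibroblast-like cells alone, at 121 and 140 CPM against 178 and 240 CPM (log2 difference 0.67, SE 0.26, edgeR adjusted p = 0.457), and below in macrophage-like cells, at 150 and 179 CPM against 142 and 120 CPM. It overlapped in the other classes, with keratinocyte-like cells at 411 and 498 CPM against 522 and 484 CPM.

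Hspa8 (ENSRNOG00000034066), whose promoter above also holds a heat shock element, was above in none of the 6 classes. It was below in dendritic-like cells, at 600 and 680 CPM against 437 and 386 CPM (log2 difference −0.64, SE 0.28, edgeR adjusted p = 0.761), and in T and NK-like cells. In neutrophil-like cells its uninjected libraries were apart, at 877 and 1899 CPM, with 911 and 694 CPM in the injected ones. That difference of −0.79 was −1.24 with an edgeR adjusted p of 0.0361 without uninjected 1, where 2.2% of all genes passed, and −0.10 without uninjected 2. Outside T and NK-like cells Hsp90aa1 was at 232 and 240 CPM against 244 and 277 CPM in keratinocyte-like, 472 and 408 against 437 and 453 CPM in fibroblast-like, 299 and 278 against 259 and 329 CPM in neutrophil-like, 285 and 277 against 256 and 287 CPM in macrophage-like and 387 and 316 against 243 and 322 CPM in dendritic-like cells. Only the keratinocyte-like values did not overlap between the groups.

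**Figure D5:**
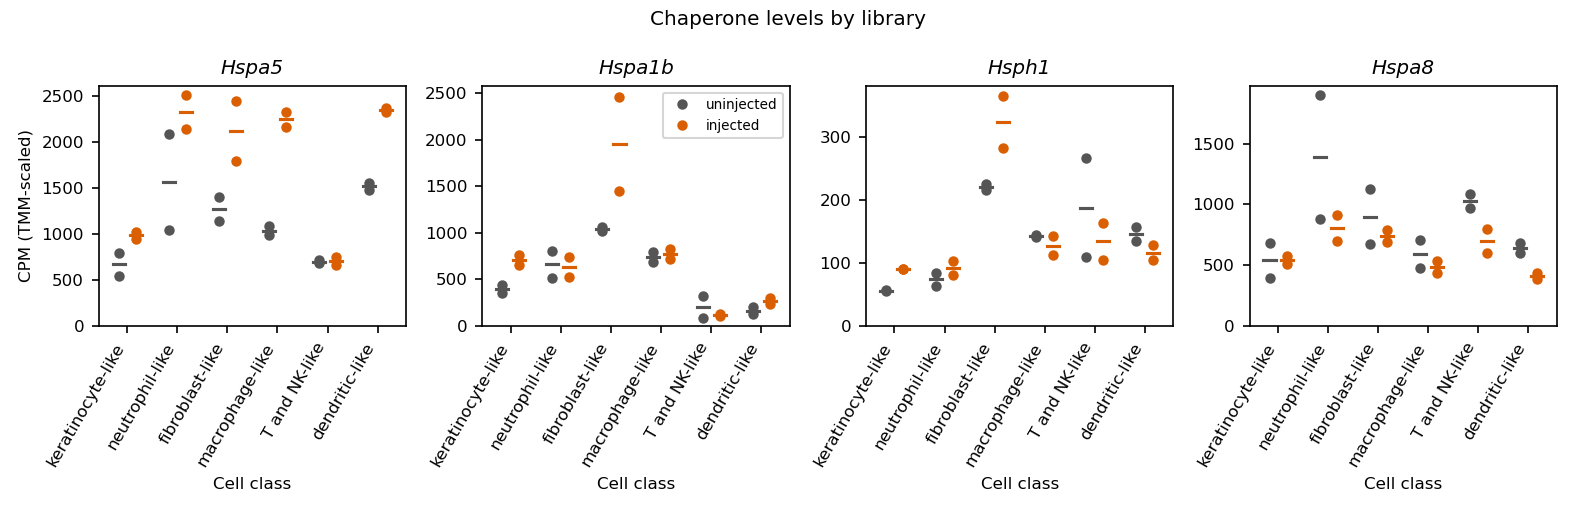
CPM of 4 chaperones by cell class, uninjected libraries in grey and injected in orange. Points are libraries and short lines the means of 2; Hspa5 is higher in both injected libraries in each class but T and NK-like cells, and Hspa8 in none.

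Neutrophil-like cells, where Egr1, Maff and Zfp36 were most abundant, had Fosl1 at 303 and 322 CPM in uninjected and 206 and 105 CPM in injected libraries (log2 difference −1.0, SE 0.44, edgeR adjusted p = 0.542). Maff was at 575 and 699 CPM against 1197 and 1044 CPM (log2 difference 0.81, SE 0.38, edgeR adjusted p = 0.548), with both injected libraries above. Egr3 overlapped, at 16.4 and 7.64 CPM against 5.55 and 7.82 CPM. Junb was above at 3448 and 7977 CPM against 8347 and 8947 CPM, where uninjected 1 was far below the rest. Jun likewise was at 440 and 1354 CPM in the uninjected libraries, with the injected ones between them at 792 and 1078 CPM. Fos (248 and 485 against 330 and 264 CPM), Egr1 (1842 and 2399 against 1463 and 1892 CPM) and Ier3 (3217 and 4502 against 4428 and 4637 CPM) overlapped, and Atf3 lay lower at 389 and 500 CPM against 360 and 354 CPM. The clusters that held most neutrophil-like cells differed between libraries, with 1401 of the 1630 cells of one S100a9-led cluster in uninjected 1. Without uninjected 2, 5 members passed the threshold (Hspa5, Jun, Junb and Ier5 higher, Egr3 lower), as did 13.1% of all genes. Without uninjected 1, 1 did (Hspa8), as did 2.2% of all genes.

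Macrophage-like cells, with 61 cells in uninjected 1, had Btg1, an antiproliferative gene, at 715 and 930 CPM in uninjected and 1811 and 1131 CPM in injected libraries (log2 difference 0.83, SE 0.40, edgeR adjusted p = 0.892). Nr4a3 was at 126 and 46.2 CPM against 41.2 and 43.1 CPM (log2 difference −0.82, SE 0.46, edgeR adjusted p = 0.892), and its uninjected 1 value rested on 26 UMIs. Atf3, a stress-induced repressor, was at 512 and 273 CPM against 224 and 253 CPM (log2 difference −0.69, SE 0.40, edgeR adjusted p = 0.892), also highest in uninjected 1. Ier3 was higher, at 2852 and 3554 CPM against 4921 and 4586 CPM. Fos (411 and 518 against 429 and 542 CPM), Jun (730 and 1350 against 1066 and 821 CPM) and Egr1 (377 and 785 against 803 and 422 CPM) overlapped. The chaperone Hspd1 overlapped as well, at 77.3 and 122 CPM against 117 and 191 CPM. The median over the early genes went from −0.20 to 0.29 without uninjected 2. A cluster of this class, with Lyz2 and Il1b among its most enriched genes, held 6 cells in uninjected 1 and 23 in uninjected 2. It held 204 in injected 1 and 31 in injected 2. The 12 macrophage markers summed to 18517 and 26852 CPM against 11973 and 16840 CPM, with no overlap and 0 at 0. Their part in the result was not tested.

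Dendritic-like cells kept Nr4a3 within 1610 and 1695 CPM in all 4 libraries. Atf3 (ENSRNOG00000003745) was at 487 and 287 CPM in uninjected and 196 and 256 CPM in injected libraries (log2 difference −0.77, SE 0.35, edgeR adjusted p = 0.761), and was lower in both injected libraries in 4 of the 6 classes. Btg1 was at 1527 and 2008 CPM against 2696 and 3099 CPM (log2 difference 0.71, SE 0.33, edgeR adjusted p = 0.761), and Dusp2 at 246 and 273 CPM against 191 and 158 CPM (−0.57, SE 0.27, edgeR adjusted p = 0.761). Zfp36, like Atf3, was lower in 4 classes, and Btg1 and Junb were higher in 4. The share of all genes lower or higher in 4 classes was not counted. Btg1 in keratinocyte-like cells was all but tied, at 1312 CPM in uninjected 2 and in injected 1. Fos was lower here, at 336 and 294 CPM against 235 and 284 CPM, and Egr1 higher, at 99.6 and 73.0 CPM against 108 and 136 CPM. Jun (520 and 446 against 387 and 600.1 CPM) and Ier3 (1317 and 884 against 922 and 1206 CPM) overlapped. The chaperone median of −0.13 became 0.24 without injected 1. In fibroblast-like cells Atf3 overlapped, at 544 and 370 CPM against 346 and 443 CPM.

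The test of the difference between classes asked whether a gene's injected over uninjected difference was the same in all 6 (edgeR, 24 sums, library as a block). It called 26 of 12125 genes (0.214%) and 0 of the 37 members, of which 9 had an unadjusted p under 0.05, as did 10.5% of all genes. Dusp2 had the smallest p of the members, at 5.58e-04 (adjusted p = 0.102), with a difference of −1.15 in T and NK-like and 0.70 in fibroblast-like cells. Maff came next (edgeR adjusted p = 0.204), with −0.81 in T and NK-like, 0.81 in neutrophil-like and 0.63 in fibroblast-like cells. Fosl1 followed (edgeR adjusted p = 0.224), with −2.42 in T and NK-like and −1.0 in neutrophil-like cells. Without uninjected 2, 1 member, Ier3, was called, among 19 of 12231 genes (0.155%). Without the low count filter 7 members were called, and 3.58% of all genes. The lower values of early genes in T and NK-like cells are therefore not shown to differ from those in other classes at this threshold.

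The number of early genes seen per cell was also counted, from the same UMIs as the values above. No such count was made for genes other than the members. With each cell thinned to 1000 UMIs, T and NK-like cells had a mean of 6.02 and 6.38 of the 27 immediate early genes in uninjected and 5.65 and 5.29 in injected libraries, with no overlap. Fibroblast-like cells had 7.50 and 7.80 against 8.21 and 8.75, with no overlap, and keratinocyte-like cells 6.57 and 7.54 against 7.79 and 7.65. Neutrophil-like cells had means of 8.504 and 9.65 against 8.73 and 8.73, although 2392 of the 4259 in uninjected 1 were deep enough to be thinned. Dendritic-like cells had 6.23 and 7.16 against 7.26 and 7.60, with no overlap. Macrophage-like cells overlapped, at 7.68 and 9.43 against 8.04 and 7.885. Chaperones seen per cell were 2.72 and 2.64 against 2.53 and 2.37 in T and NK-like cells and 2.22 and 2.43 against 2.07 and 2.06 in neutrophil-like cells. Fibroblast-like cells had 3.28 and 3.87 against 3.88 and 3.88. None of the 3 overlapped, but in fibroblast-like cells uninjected 2 (3.873) all but reached the injected libraries (3.882 each). Keratinocyte-like (2.67 and 3.67 against 3.64 and 3.76), macrophage-like (2.28 and 2.75 against 2.57 and 2.54) and dendritic-like cells (2.25 and 2.67 against 2.32 and 2.345) overlapped.

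Other early response genes followed the members in T and NK-like cells. Of 37 further genes of this kind found in the tables (Gadd45, Dusp, Klf, Socs and Cebp genes among them), 28 were tested there. Of these, 16 were below and 1, Dusp5, above in both injected libraries (22.2% and 22.6% of all genes), with a median of −0.57. In fibroblast-like cells 15 of 37 were above and 2 below (21.2% and 20.0% of all genes, median 0.26). Keratinocyte-like cells had 17 and 3 of 37 (18.8% and 17.6%, median 0.16) and macrophage-like cells 11 and 6 of 34 (21.4% and 17.6%, median 0.24). Dendritic-like cells had 11 and 2 of 32 (19.7% and 18.4%, median 0.30). Neutrophil-like cells had 9 and 7 of 34, near the shares of all genes (21.3% and 20.3%, median −0.14). One passed the threshold: Ier5l, a paralog of Ier5, fell in fibroblast-like cells from 49.2 and 49.7 CPM to 6.74 and 5.03 CPM, a log2 difference of −3.06 (SE 0.25, edgeR adjusted p = 0.0254). It was at 23.8 and 22.7 against 4.63 and 4.26 CPM in keratinocyte-like cells (adjusted p = 0.173), 179 and 125 against 26.2 and 20.6 CPM in macrophage-like cells (adjusted p = 0.135) and 6.67 and 10.7 against 1.11 and 4.60 CPM in neutrophil-like cells (adjusted p = 0.542). This change was already known from earlier results of these data. Ier5 itself was not lower in any of the 6 classes.

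Genes upstream of the early response (MAP kinases, ribosomal S6 kinases, serum response factor partners and CREB factors) numbered 21 in the tables, and 0 passed the threshold. In T and NK-like cells 8 of 19 were below and 3 above (22.2% and 22.6% of all genes), with a median of −0.24. The 2 of smallest p were Crem, a cyclic AMP-responsive factor, at 121 and 104 CPM against 240 and 178 CPM in fibroblast-like cells, and Rps6ka3, a ribosomal S6 kinase, at 131 and 146 CPM against 277 and 210 CPM in dendritic-like cells. Of 32 other cytosolic chaperones and co-chaperones, 0 passed. In T and NK-like cells 9 of 30 were above (Cct3 and other subunits of the chaperonin among them) and 6 below, against 22.6% and 22.2% of all genes. Their median of 0.15 was on the side opposite to the 10 member chaperones. In macrophage-like cells 15 of 31 were above and 3 below (21.4% and 17.6% of all genes, median 0.37). Hspa2 had the 2 smallest p of this list, at 36.5 and 37.9 against 66.7 and 55.7 CPM in fibroblast-like and 48.7 and 67.4 against 93.1 and 92.3 CPM in keratinocyte-like cells. Of 7 mitochondrial chaperones and proteases 0 passed; the protease Clpp was lower in the injected libraries, at 29.5 and 23.8 against 15.2 and 17.9 CPM in keratinocyte-like and 27.7 and 24.03 against 17.1 and 17.2 CPM in fibroblast-like cells.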

How the data were processed

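The authors deposited UMI counts per gene and barcode for all droplets of 4 libraries, made with Cell Ranger 7.2.0 per the file headers (5.0.1 per the submitters' processing notes). The genome build is not given in the sources used here. Members and lists were chosen with earlier results of these data known. Cells were called against the profile of empty droplets (500 UMIs or more, false discovery rate 0.01), kept with at least 250 genes and at most 20% mitochondrial UMIs, and doublets scored with Scrublet in scanpy 1.11.5 were removed. Leiden clustering (resolution 2) used 2000 variable genes without the members. The naming thresholds and the resolution were set after the clusters were seen: at least 3 markers, each in 20% of cells at 2-fold or more. Clusters with 808, 476 and 80 cells stayed unnamed. The clusters of 808 and 476 cells scored highest for the dendritic markers, with 2 and 6 of 12 passing. The dendritic-like values do not cover them.

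Counts were summed per class and library and tested by quasi-likelihood in edgeR 4.0.16 under R 4.3.3 (TMM scaling, filterByExpr, no covariates), with DESeq2 1.42.0 as an alternative. Standard errors come from the quasi-likelihood F. Scripts were tested on simulated data. Same-numbered libraries did not deviate together (r −0.162 to −0.001), so numbers were not used as pairs. The threshold was an adjusted p of 0.05; intervals are 95% Wilson intervals, and they cover counting error only. The genes named were those past the threshold, the 3 immediate early and 2 chaperone members of smallest p in each class, a panel of 9 members (Fos, Jun, Egr1, Atf3, Ier3, Hspa1b, Hspa5, Hsp90aa1, Dnajb1) in every class, and the 2 genes of smallest p in each further list; further members were named after their values were seen.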

Additional observations from a re-analysis of the deposited data

How the results depend on the processing

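Several of these results depend on single libraries. Leaving out 1 library at a time, members called ranged from 0 to 5 in neutrophil-like, 0 to 1 in fibroblast-like and 0 to 10 in T and NK-like cells, and from 0 to 1 for the difference between classes. The medians of the early genes ranged from 0.027 to 0.23 (keratinocyte-like), −0.24 to 0.20 (neutrophil-like), 0.11 to 0.36 (fibroblast-like), −0.22 to 0.29 (macrophage-like) and 0.064 to 0.10 (dendritic-like), and those of the chaperones from 0.0053 to 0.41 (keratinocyte-like), −0.25 to 0.065 (neutrophil-like), 0.20 to 0.35 (fibroblast-like), −0.071 to 0.22 (macrophage-like), −0.75 to −0.075 (T and NK-like) and −0.41 to 0.24 (dendritic-like). The early gene median of T and NK-like cells stayed between −0.69 and −0.46. Without the filter on low counts, 5 members were called in T and NK-like cells (Zfp36, Fosl1, Dusp1, Ier3 and Hspb1, all lower) and 7 differed between classes (3.58% of all genes), with early gene medians of −0.43 (T and NK-like) and 0.11 (dendritic-like) and a chaperone median of 0.085 (macrophage-like). With cells gated by markers the neutrophil-like chaperone median was −0.33, and with doublets kept the dendritic-like one was 0.22. The cause of these changes was not tested. Size factors of DESeq2 within edgeR, DESeq2 and a mitochondrial limit of 10% called 0 members in each class. Over all genes, with classes in the order keratinocyte, neutrophil, fibroblast, macrophage, T and NK, and dendritic, edgeR called 0, 0, 5, 1, 0 and 0, DESeq2 37, 40, 160, 4, 8 and 11, edgeR without the low count filter 2, 401, 536, 69, 248 and 210, and edgeR without uninjected 2 509, 1227, 1033, 69, 520 and 296. The marker gate could be run in keratinocyte-like, neutrophil-like and fibroblast-like cells; in the others a library held under 50 gated cells. A left-out library leaves a group of 1, assumed to vary like the other group.

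With the replicate number as a block, 0 members were called in each class, and with the crossed pairing, chosen after seeing the data, 0 members were called as well. With the replicate block, all genes called went from 5 to 9 in fibroblast-like cells, and with the crossed pairing they numbered 31 there and 210 in dendritic-like cells.

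Some named members changed sign. Leaving out 1 library at a time, log2 differences ranged in keratinocyte-like cells from −0.014 to 0.29 (Fos), −0.15 to 0.41 (Egr1), −0.47 to 0.13 (Atf3) and −0.13 to 0.25 (Ier3). In neutrophil-like cells they ranged from −0.71 to 0.29 (Fos), −0.53 to 1.11 (Jun), −0.36 to 0.31 (Hspa1b), −0.12 to 0.19 (Hsp90aa1) and −0.52 to 0.29 (Dnajb1). In fibroblast-like cells they ranged from −0.15 to 0.56 (Fos), −0.21 to 0.33 (Jun), −0.46 to 0.0804 (Atf3) and −0.084 to 0.11 (Hsp90aa1). In macrophage-like cells they ranged from −0.12 to 0.29 (Fos), −0.54 to 0.43 (Jun), −0.47 to 0.76 (Egr1), −0.071 to 0.22 (Hspa1b) and −0.13 to 0.034 (Hsp90aa1). In T and NK-like cells they ranged from −1.48 to 0.50 (Hspa1b), −0.073 to 0.12 (Hspa5) and −0.36 to 0.30 (Dnajb1), and in dendritic-like cells from −0.31 to 0.32 (Jun) and −0.30 to 0.27 (Ier3). The marker gate gave −0.34 (Jun) and −0.39 (Hsp90aa1) in neutrophil-like cells. With doublets kept, Jun in neutrophil-like cells was −0.0003, Egr1 in macrophage-like cells −0.084, Hsp90aa1 in macrophage-like cells 0.0099 and Dnajb1 in T and NK-like cells 0.14. Without the low count filter, Hsp90aa1 was −0.0093 in neutrophil-like and 0.034 in macrophage-like cells, Dnajb1 0.026 in T and NK-like and Ier3 0.0076 in dendritic-like cells. With the 10% mitochondrial limit, Hsp90aa1 in neutrophil-like cells was −0.0009, and Egr1 and Hspa1b in macrophage-like cells were −0.023 and −0.076. Hspa5 was −0.012 in the Il2ra cluster and Dnajb1 0.079 in the Gzmk cluster of T and NK-like cells, and Jun in dendritic-like cells −0.0013 with the crossed pairing.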

Other observations

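Cells of 5 smaller classes, with as few as 7 cells in a library (mural-like and skeletal muscle-like), entered no test, and their values are CPM without TMM scaling. Hspa5 was higher in both injected libraries in each of them: 659 and 1510 against 2213 and 1723 CPM in endothelial-like, 578 and 1077 against 1848 and 1420 CPM in mast-like, 518 and 884 against 1009 and 1046 CPM in melanocyte-like, 1120 and 1427 against 2134 and 1450 CPM in mural-like and 335 and 669 against 1338 and 2022 CPM in skeletal muscle-like cells. How many of all genes were higher in each of these 5 classes was not counted. Hspa5 was singled out after its values were seen. Uninjected 1 was its lowest library in each of the 5 classes. In mural-like cells uninjected 2 (19 cells, 1427 CPM) and injected 2 (7 cells, 1450 CPM) were close. Hspa1b was most abundant in melanocyte-like cells among these 5 classes, at 2626 and 3753 CPM in uninjected and 4774 and 5500 CPM in injected libraries. Fos was at 632 and 917 against 980 and 725 CPM in melanocyte-like and 231 and 756 against 483 and 601 CPM in mast-like cells. Atf3 in mast-like cells was at 1396 and 634 against 151 and 470 CPM, with both injected libraries below.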
